A study of Mus musculus with 69 samples.

Results

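The keratin-associated protein genes are the 45 genes of the array whose symbol is Krtap followed by a number. They were taken by symbol from the platform annotation, which gave 46 probe sets with 1 such symbol, and the probe set with the highest mean stood for Krtap4-2, the gene with several. They are 45 of 18820 genes measured, and a gene table gave every one of them under the same symbol. A further 13 probe sets named a Krtap gene together with other genes and were kept apart. The members lie on chromosome 7 (5 genes, all of family 5), chromosome 10 (3 genes), chromosome 11 (15 genes) and chromosome 16 (22 genes). Genes within a family are close copies of each other, so a probe set may also read a neighbour's transcript.

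Keratin-associated proteins form the matrix in which the keratin filaments of the hair shaft are embedded. Some are rich in cysteine and crosslink to the hair keratins through disulfide bonds, while others are rich in glycine and tyrosine. They are made late, in the keratinising zone of a growing follicle, so skin whose follicles rest makes little of them. In humans, families 5, 10 and 12 are known from the hair cuticle and families 1, 3, 4 and 9 from the cortex. From general knowledge of the families, 26 members were grouped as cysteine-rich (families 1, 3, 4, 5, 9, 10, 11, 12, 13, 17, 24 and 26) and 14 as glycine-tyrosine-rich (families 6, 7, 8, 19, 20 and 21). The other 5 (families 14, 15, 16 and 31) were not grouped.

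The study followed mouse dorsal skin painted with TPA, a tumour-promoting phorbol ester that inflames skin and thickens its epidermis. FVB denotes the inbred FVB/N strain, SPR the wild-derived Spret/Ei strain, and F1 the FVB/N by Spret/Ei hybrid. Mice were 8 weeks old at the start, their backs were shaved beforehand, and the 0 h skin is labelled untreated. FVB had 3 arrays at each of 0, 2, 6, 12, 24, 48, 72, 168 and 1008 h, all in batch 1. For F1 there were 4 arrays of untreated skin, 1 of 2 h, 2 each of 4, 6, 12, 24 and 72 h, 3 of 48 h, 1 of 168 h and 6 of 1008 h, from batches 2 and 3. SPR had 2 arrays at each of 0, 4, 12, 24, 48 and 1008 h and 1 at each of 2 and 6 h, also in batches 2 and 3. The protocol describes 1 application of TPA, but the design text can be read as repeated exposure, so the number of applications before each time is not settled. No vehicle arrays are among these samples, so the effects of TPA, acetone, shaving and the greater age of the mice at 1008 h cannot be told apart. The labels do not say whether the arrays of a group came from separate mice, so p-values measure the spread between arrays, part of which may be technical.

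Promoters of 5 members are shown because these are the 4 genes with the largest rise at 1008 h in FVB and the 1 gene that fell there, the last chosen after its values were seen. They come from RefSeq on build GRCm38.p6 and run from 250 bases before to 50 bases after the gene start, on the strand of the gene. The intervals are chr16:89487903-89488202 for Krtap8-1, chr16:88869361-88869660 for Krtap19-1, chr16:88828759-88829058 for Krtap15, chr11:99851556-99851855 for Krtap4-16 and chr16:88751579-88751878 for Krtap13. Krtap15 is on the plus strand and the other 4 are on the minus strand. Capitals mark the TATA box TATAAA and the LEF/TCF cores CTTTGAA or CTTTGAT or CTTTGTA or CTTTGTT, searched on both strands.
Krtap8-1: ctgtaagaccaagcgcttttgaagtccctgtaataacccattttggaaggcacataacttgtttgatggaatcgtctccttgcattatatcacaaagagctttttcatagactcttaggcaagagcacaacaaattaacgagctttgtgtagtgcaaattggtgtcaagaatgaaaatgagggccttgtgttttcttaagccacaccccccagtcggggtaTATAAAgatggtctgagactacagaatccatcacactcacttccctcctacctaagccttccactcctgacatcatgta
Krtap19-1: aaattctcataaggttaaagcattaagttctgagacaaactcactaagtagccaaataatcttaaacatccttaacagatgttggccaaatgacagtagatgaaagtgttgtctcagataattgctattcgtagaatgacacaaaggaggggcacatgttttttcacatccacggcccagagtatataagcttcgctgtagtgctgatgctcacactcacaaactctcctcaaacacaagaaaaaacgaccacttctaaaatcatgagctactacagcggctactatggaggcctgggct
Krtap15: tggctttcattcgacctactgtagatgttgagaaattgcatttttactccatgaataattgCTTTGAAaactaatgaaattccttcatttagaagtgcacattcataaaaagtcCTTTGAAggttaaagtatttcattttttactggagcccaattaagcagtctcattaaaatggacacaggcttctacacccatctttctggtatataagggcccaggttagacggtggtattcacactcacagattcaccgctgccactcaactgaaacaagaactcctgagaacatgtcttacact
Krtap4-16: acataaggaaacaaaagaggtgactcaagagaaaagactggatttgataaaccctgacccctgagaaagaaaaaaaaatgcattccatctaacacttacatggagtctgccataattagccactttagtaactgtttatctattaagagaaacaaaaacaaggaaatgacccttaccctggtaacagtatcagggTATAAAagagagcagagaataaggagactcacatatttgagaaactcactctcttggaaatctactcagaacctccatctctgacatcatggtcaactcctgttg
Krtap13: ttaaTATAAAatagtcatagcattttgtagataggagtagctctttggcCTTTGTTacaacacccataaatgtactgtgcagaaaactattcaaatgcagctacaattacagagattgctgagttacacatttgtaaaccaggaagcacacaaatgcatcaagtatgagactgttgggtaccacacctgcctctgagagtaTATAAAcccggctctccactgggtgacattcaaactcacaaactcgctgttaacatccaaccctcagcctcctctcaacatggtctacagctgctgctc
Of the 45 members, 41 had a promoter in the table. TATAAA was present in 33 of these 41 (80.5%), against 14.2% of all 27025 promoters of the same length. On the gene's own strand, between 45 and 10 bases before the start, it was present in 24 of 41 members (58.5%) and in 2.48% of all promoters. A LEF/TCF core, the element read by the Wnt pathway factors LEF1 and TCF, was present in 18 of 41 (43.9%), against 16.9% of all. HOXC13-type cores (TTTATGA or TTTATGG or TTTATTA or TTTATTG or TTAATGA or TTAATGG or TTAATTA or TTAATTG, both strands) were present in 24 of 41 (58.5%), against 22.2% of all. They are named for the homeobox factor of the hair matrix. Like TATAAA they are A/T-rich, and overlap between the matches was not counted. Krtap8-1 has its TATAAA starting 29 bases before the gene start and Krtap4-16 at 55 bases, while Krtap13 has one at 246 and another at 49 bases. Neither Krtap19-1 nor Krtap15 has TATAAA in this window, but both hold the similar stretch tatataag. Only the exact TATAAA was counted, so its absence does not mean that a TATA box is absent. These matches are descriptions of sequence, and no binding was measured.

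In FVB skin at 1008 h, 44 of the 45 members rose and 1, Krtap13, fell, relative to untreated FVB skin. A gene was called changed at a Benjamini-Hochberg adjusted p under 0.05 in limma, over all 18820 genes, with a log2 change of at least 1 in size. By this rule 8.14% of all genes changed in that comparison, 4.22% higher and 3.92% lower. The median log2 change of the members was 4.86, against -0.04 for all genes. All 3 arrays at 1008 h lay above all 3 arrays at 0 h in the same 44 members, a separation seen in 21.0% of all genes, and below them in Krtap13, as in 23.6% of genes. Fewer cells of a type and less RNA per cell cannot be told apart in whole skin.

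**Figure D1:**
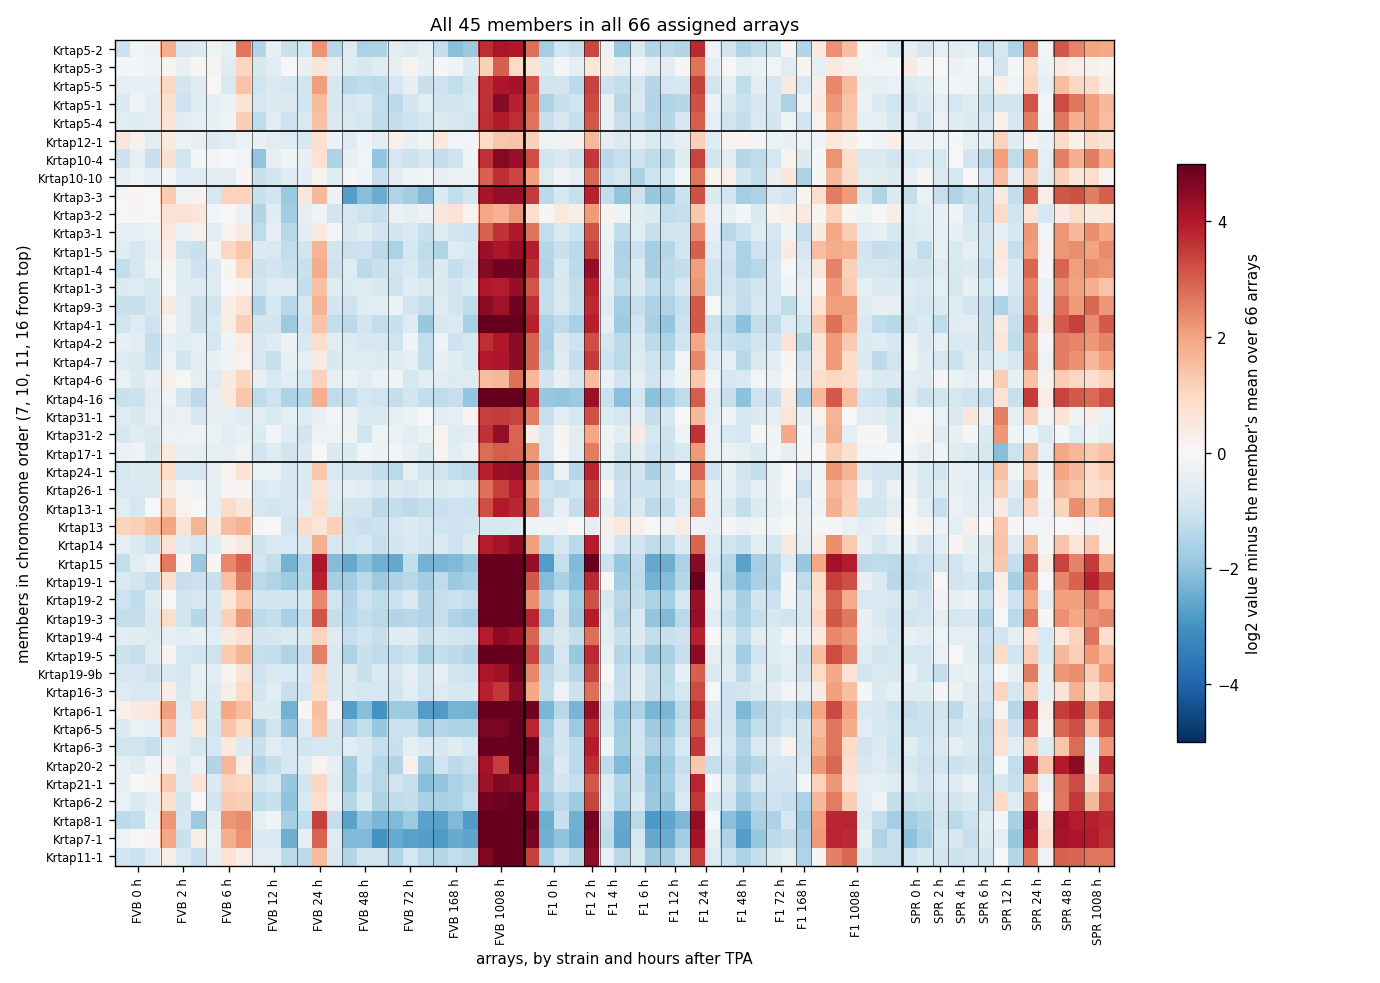
Heat map of the 45 members (rows, in chromosome order) in the 66 assigned arrays (columns, by strain and hours after TPA). Colour is the deposited log2 value minus the member's mean over those arrays, with the scale ending at -5 and 5; among others, the 3 FVB arrays of 1008 h, single arrays of F1 at 0, 2 and 24 h and of SPR at 24 h, replicate 2 of F1 at 1008 h and both SPR arrays of 48 h and of 1008 h are red over most of the rows.

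Krtap8-1, a glycine-tyrosine-rich matrix protein gene, rose most. Its log2 values were 12.60, 12.77 and 13.13 in FVB skin at 1008 h, against 5.19, 5.32 and 6.16 at 0 h. The groups were far apart, and the change was 7.28 ± 1.34 (SE, n = 3 arrays each), about 155-fold (adjusted p = 1.01e-04). Krtap19-1, of the same class, had 10.47, 10.55 and 10.48 at 1008 h, against 3.81, 3.67 and 3.34 at 0 h. It rose by 6.89 ± 1.19, or 119-fold (adjusted p = 3.89e-05). Krtap15 had 11.65, 11.60 and 11.87 at 1008 h, against 4.63, 5.28 and 5.51 at 0 h, a rise of 6.57 ± 1.42 (adjusted p = 8.37e-04). Krtap4-16, of the cysteine-rich family 4, had 10.22, 10.64 and 11.37 at 1008 h, against 3.99, 4.02 and 4.57 at 0 h, a rise of 6.55 ± 1.01 (adjusted p = 6.71e-06). In none of these 4 genes did an array of 1008 h come near an array of 0 h. The fifth largest rise was that of Krtap19-3, at 6.50 ± 1.08. Standard errors of the most variable members exceed the spread within these 2 groups because the fit shares 1 estimate of spread over all 27 groups, some of which held arrays far apart.

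By composition, all 14 glycine-tyrosine-rich members rose in FVB at 1008 h, with changes between 4.55 (Krtap21-1) and 7.28 (Krtap8-1) and a median of 5.78. Of the 26 cysteine-rich members, 25 rose, and their median change over all 26 was 4.40. The 5 ungrouped members rose too, with a median of 4.68. Within family 19, the 6 genes ranged from 4.85 ± 0.75 (Krtap19-4) to 6.89 ± 1.19 (Krtap19-1). Family 6 ranged from 5.05 ± 1.14 (Krtap6-1) to 6.45 ± 0.96 (Krtap6-3). The single genes of families 7 and 11, Krtap7-1 and Krtap11-1, rose by 6.10 ± 1.26 and 6.02 ± 0.92. These ranges are differences between groups, and levels of different probe sets were not compared.

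The cysteine-rich members spread more widely. In family 4 the changes ran from 2.47 ± 0.52 for Krtap4-6 to 6.55 ± 1.01 for Krtap4-16, and in family 1 from 4.83 ± 0.74 (Krtap1-3) to 5.53 ± 0.85 (Krtap1-4). Family 3 ran from 1.92 ± 0.35 (Krtap3-2) to 4.29 ± 0.88 (Krtap3-3). Family 5, whose human relatives are cuticle genes, ran from 1.86 ± 0.47 (Krtap5-3) to 4.52 ± 0.79 (Krtap5-1). Family 10 ran from 3.66 ± 0.57 (Krtap10-10) to 5.03 ± 0.87 (Krtap10-4), and the single members of families 9 and 17, Krtap9-3 and Krtap17-1, rose by 5.55 ± 0.81 and 3.37 ± 0.48. The smallest rise was that of Krtap12-1, another relative of human cuticle genes. Its values were 6.09, 6.48 and 6.52 at 1008 h, against 5.66, 5.33 and 4.59 at 0 h. The groups did not overlap, and the change of 1.17 ± 0.38 was just inside the call (adjusted p = 0.0266). By chromosome the median change was 4.38 on chromosome 7, 3.66 on 10, 4.80 on 11 and 5.37 on 16. Of the printed promoters, those of Krtap8-1, Krtap4-16 and Krtap13, the member that fell, hold the exact TATAAA. Those of Krtap19-1 and Krtap15 hold the similar tatataag instead. Any link between these sequences and the changes was not tested.

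**Figure D2:**
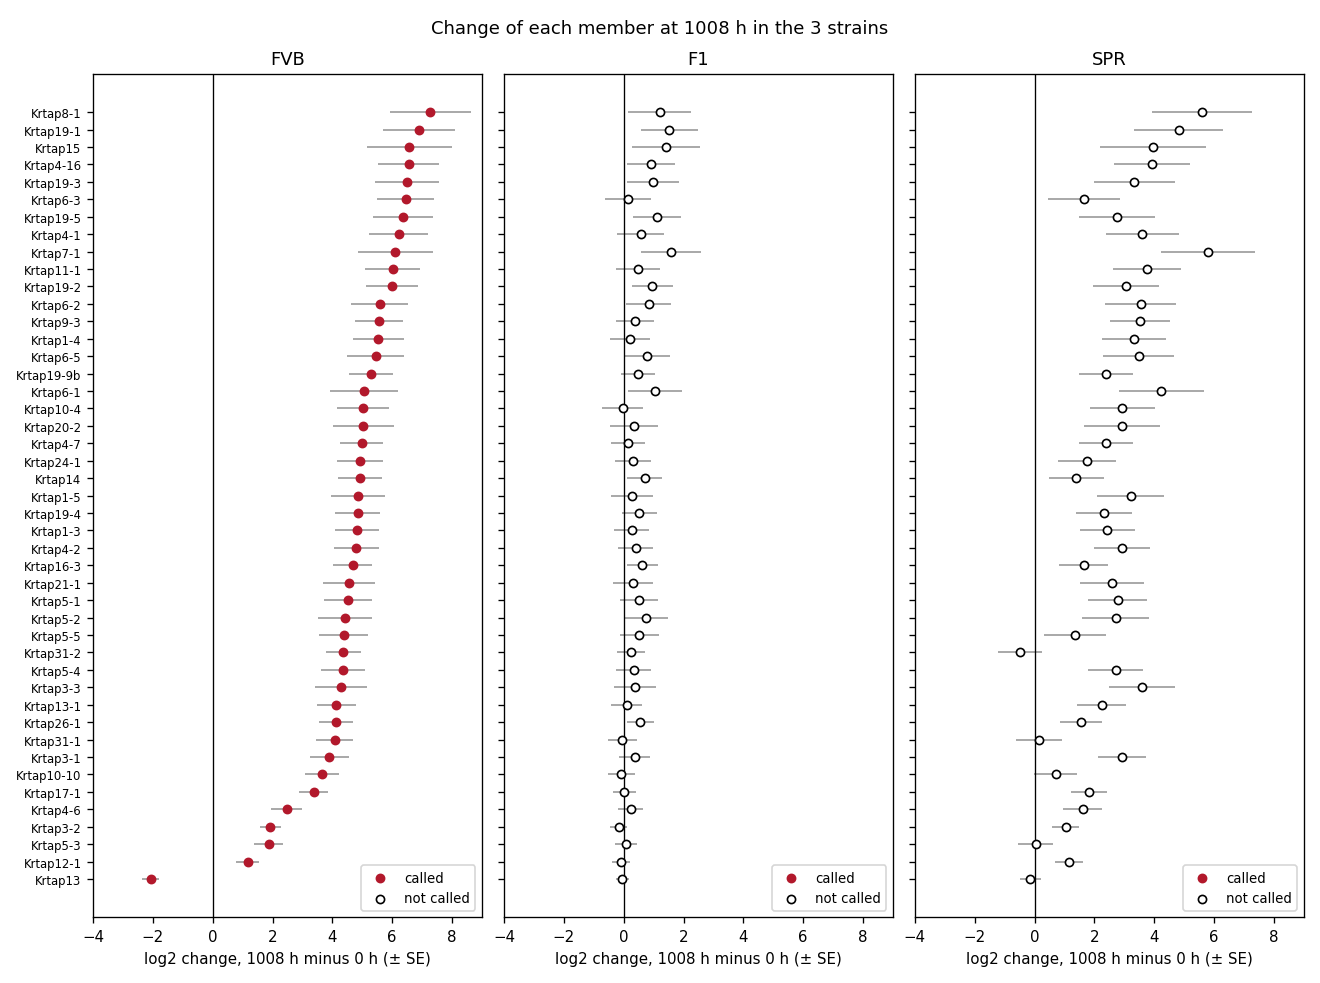
Change of each member at 1008 h minus 0 h on the log2 scale (points, with SE bars) in FVB, F1 and SPR, members ordered by the FVB change. Filled points were called: 45 in FVB, of which only Krtap13 lies left of 0, and none in F1 or SPR, although most SPR points lie right of 0.

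Krtap13, a cysteine-rich member whose neighbour Krtap13-1 rose by 4.12 ± 0.65, went the other way. Its values were 2.92, 2.95 and 3.00 in FVB skin at 1008 h, against 4.90, 4.95 and 5.28 at 0 h. The difference was -2.08 ± 0.28 (adjusted p = 9.95e-07). The gene was also called lower at 12 h (-1.62 ± 0.28), 48 h (-2.35 ± 0.28), 72 h (-2.10 ± 0.28) and 168 h (-2.29 ± 0.28), but not at 2, 6 or 24 h. Along the FVB time course its values were 4.90, 4.95 and 5.28 at 0 h, 5.72, 4.42 and 5.48 at 2 h, 4.20, 5.31 and 5.52 at 6 h and 3.72, 3.77 and 2.77 at 12 h. They were 4.72, 4.36 and 4.95 at 24 h, then 2.75, 2.64 and 2.67 at 48 h, 2.88, 3.06 and 2.87 at 72 h and 2.77, 2.73 and 2.76 at 168 h. All 9 arrays from 48 to 168 h and the 3 of 1008 h lay below every array of 0 to 6 h and of 24 h. No group mean of this probe set reached 5.53, the median of all deposited values, so it read in the dimmer part of the array in every group. In F1 and SPR its 1008 h change was -0.05 ± 0.22 and -0.15 ± 0.35, and neither was called.

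Krtap3-2, of the cysteine-rich family 3, was the other member called before 1008 h. At 12 h its FVB values were 4.35, 5.22 and 4.08, against 5.81, 5.88 and 5.83 at 0 h, a change of -1.29 ± 0.35 (adjusted p = 0.00608). At 48 h they were 4.995, 4.75 and 4.66, and the change was -1.04 ± 0.35. It lost the call at 12 h without replicate 3 of 12 h (change -1.06), and at 48 h under median centring (-0.93), cyclic loess (-0.99), without any 1 of the 3 arrays of 0 h or of 48 h (-0.97 to -1.13), and at both times without replicates 2 and 3 of 0 h (-1.26 and -1.01). In F1 skin its change was -1.07 ± 0.38 at 6 h and -1.61 ± 0.38 at 12 h, both called. The F1 values were 5.20 and 5.12 at 6 h and 4.58 and 4.66 at 12 h, against 6.63, 5.87, 6.32 and 6.10 at 0 h, with no overlap. Within batch 2 alone the F1 changes were -1.27 and -1.82, and within batch 3 alone -0.86 and -1.40, and none of these 4 was called. The 6 h call was also lost under cyclic loess (-0.95), without replicate 1, 3 or 4 of 0 h (-0.91, -1.02 and -1.12) and without either 6 h array (-1.15 and -0.98). The 12 h call was lost without either 12 h array (-1.53 and -1.69). At 168 h, by contrast, its FVB values of 6.36, 6.55 and 5.98 lay above those of 0 h.

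**Figure D3:**
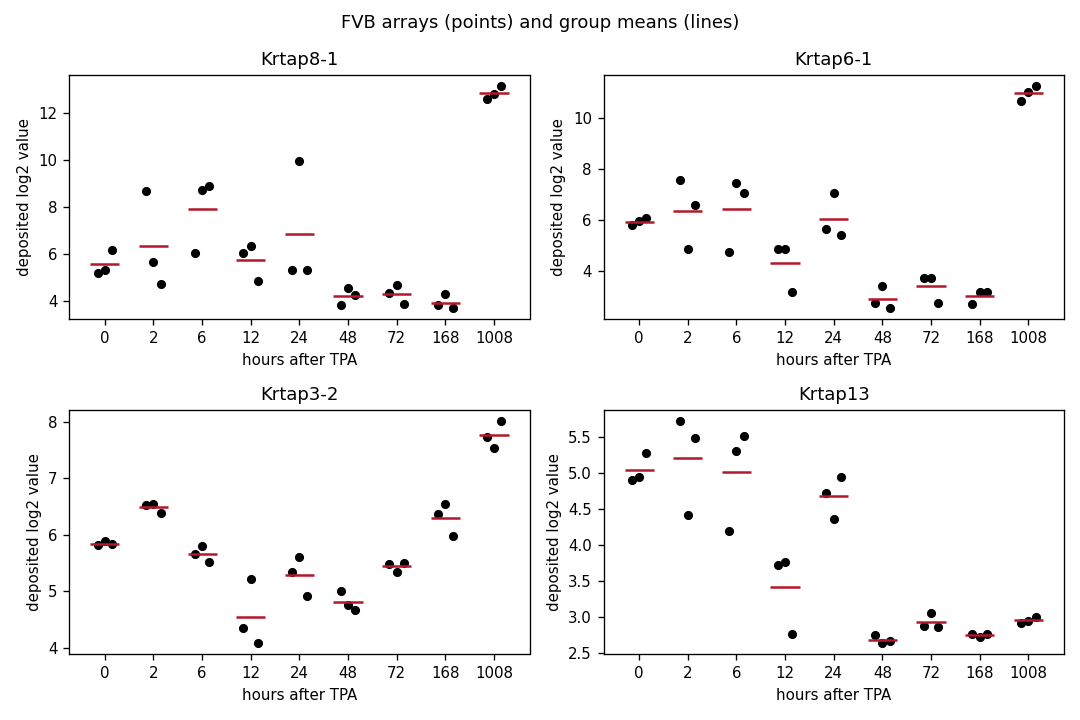
Deposited log2 values of Krtap8-1, Krtap6-1, Krtap3-2 and Krtap13 in the 27 FVB arrays (points, 3 at each time) with group means (lines), by hours after TPA. Krtap8-1, Krtap6-1 and Krtap3-2 are highest at 1008 h, where Krtap13 stays between 2.92 and 3.00, below its 0 h values of 4.90 to 5.28.

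Before 1008 h few members were called in FVB. At 2, 6 and 24 h no member was called, where 6.68%, 12.3% and 5.48% of all genes were, and none reached an unadjusted p under 0.05 either. At 12 h 2 of 45 were called lower (Krtap13 and Krtap3-2), against 4.94% of all genes called lower and 10.4% called in either direction. At 48 h the same 2 were called lower (2.85% of genes lower, 5.95% either way), and at 72 h and 168 h Krtap13 alone (0.935% and 0.128% lower, 1.88% and 0.383% either way). With FVB fitted alone, 2, 5, 4 and 2 members were called at 6, 48, 72 and 168 h. Over the whole FVB time course, 1008 h included, the moderated F test passed an adjusted p of 0.05 in all 45 members, against 50.9% of all genes. The median change of the members at 2, 6, 12 and 24 h was 0.41, 0.80, -0.32 and 0.55, and at 48, 72 and 168 h it was -0.35, -0.23 and -0.31.

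From 48 to 168 h many members lay a little below untreated skin. All 3 arrays lay below all 3 arrays of 0 h in 20 members at 48 h, 16 at 72 h and 22 at 168 h, where this held for 13.2%, 14.4% and 15.3% of all genes. Taking the 9 arrays of these 3 times together, 13 of 45 members (28.9%) had every 0 h array above all of them, against 3.84% of all genes. They were Krtap3-1, Krtap3-3, Krtap5-4, Krtap6-1, Krtap6-2, Krtap6-5, Krtap7-1, Krtap8-1, Krtap13, Krtap13-1, Krtap15, Krtap19-1 and Krtap21-1. This comparison was chosen after the values were seen and was not tested. Krtap6-1, a glycine-tyrosine-rich gene, had 2.75, 3.40 and 2.52 at 48 h, 3.73, 3.71 and 2.72 at 72 h and 2.67, 3.18 and 3.17 at 168 h, against 5.77, 5.95 and 6.05 at 0 h. The difference of -3.04 ± 1.14 at 48 h missed the call (adjusted p = 0.0670). Krtap3-3 was also just outside it at 48 h, at -2.46 ± 0.88 (adjusted p = 0.0560). The median of the hair shaft keratin genes was 4.14, 4.51 and 4.36 in the arrays of 48 h, against 4.86, 4.71 and 4.82 at 0 h, and its part in the result was not tested.

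**Figure D4:**
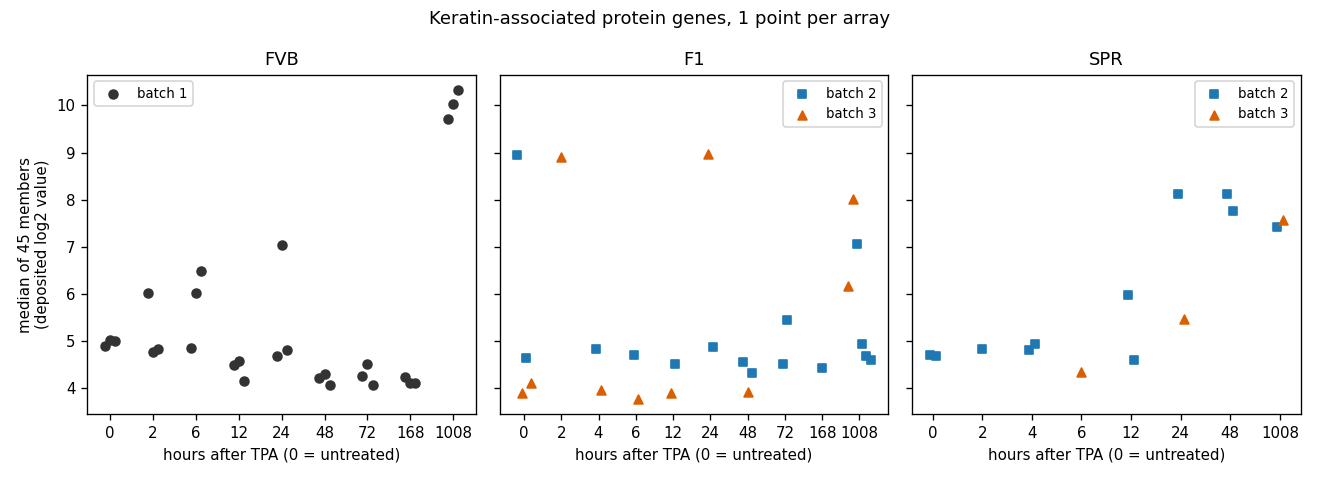
Median of the deposited log2 values of the 45 members in each assigned array, by hours after TPA, for FVB, F1 and SPR, with batches marked by colour and shape. The FVB arrays of 1008 h lie at 9.70 to 10.32, and single arrays of F1 at 0, 2 and 24 h lie near 9 while the other F1 arrays of 0 and 24 h lie below 5.

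At the early times the arrays of a group did not move together. Replicate 1 of FVB at 2 h had a member median of 6.02, against 4.77 and 4.84 in the other arrays of that time. At 6 h the medians were 4.86, 6.03 and 6.50, and at 24 h 4.68, 7.05 and 4.81, against 4.90, 5.02 and 4.996 at 0 h. In replicate 1 of 2 h, 25 members lay at least 1 log2 unit above the mean of the 0 h arrays, in replicates 2 and 3 of 6 h 23 and 31 did, and in replicate 2 of 24 h 34 did. No member was that far above in replicate 2 of 2 h, replicate 1 of 6 h, or replicates 1 and 3 of 24 h. How many of all genes lay that far above in each array is not given here. The inner root sheath genes encode the sheath that moulds the shaft. Their medians were 6.19, 5.81, 7.10 and 6.42 in the 4 high arrays, against 5.31, 5.09 and 5.07 at 0 h. The other arrays of those times had 5.42 and 5.15 at 2 h, 5.65 at 6 h and 5.07 and 4.70 at 24 h. The hair shaft keratin medians were 5.53, 5.67, 6.26 and 5.76 in the 4 high arrays, against 4.86, 4.71 and 4.82 at 0 h. The part of these hair genes in the members' values was not tested.

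The members were unequal within those arrays. In replicate 2 of 24 h, Krtap19-1 lay 4.84 above its 0 h mean, Krtap15 4.75, Krtap8-1 4.38 and Krtap19-3 4.19. In the same array Krtap31-1 lay 0.26 above its 0 h mean, Krtap31-2 0.45, Krtap6-3 0.22 and Krtap17-1 0.49. These last 4 all rose at 1008 h, Krtap6-3 by 6.45. Its values were 3.38, 3.37 and 3.19 at 0 h, 3.42, 3.54 and 3.46 at 24 h, with no array set apart, and 9.64, 9.27 and 10.36 at 1008 h. In that array Krtap3-2 differed from its 0 h mean by -0.23 and Krtap13 by -0.68. By composition the median difference in replicate 2 of 6 h was 1.84 for glycine-tyrosine-rich and 0.68 for cysteine-rich members. In replicate 3 of 6 h it was 1.69 and 1.15, and in replicate 2 of 24 h 1.91 and 1.64. Each of these is 1 array with no replicate check.

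**Figure D5:**
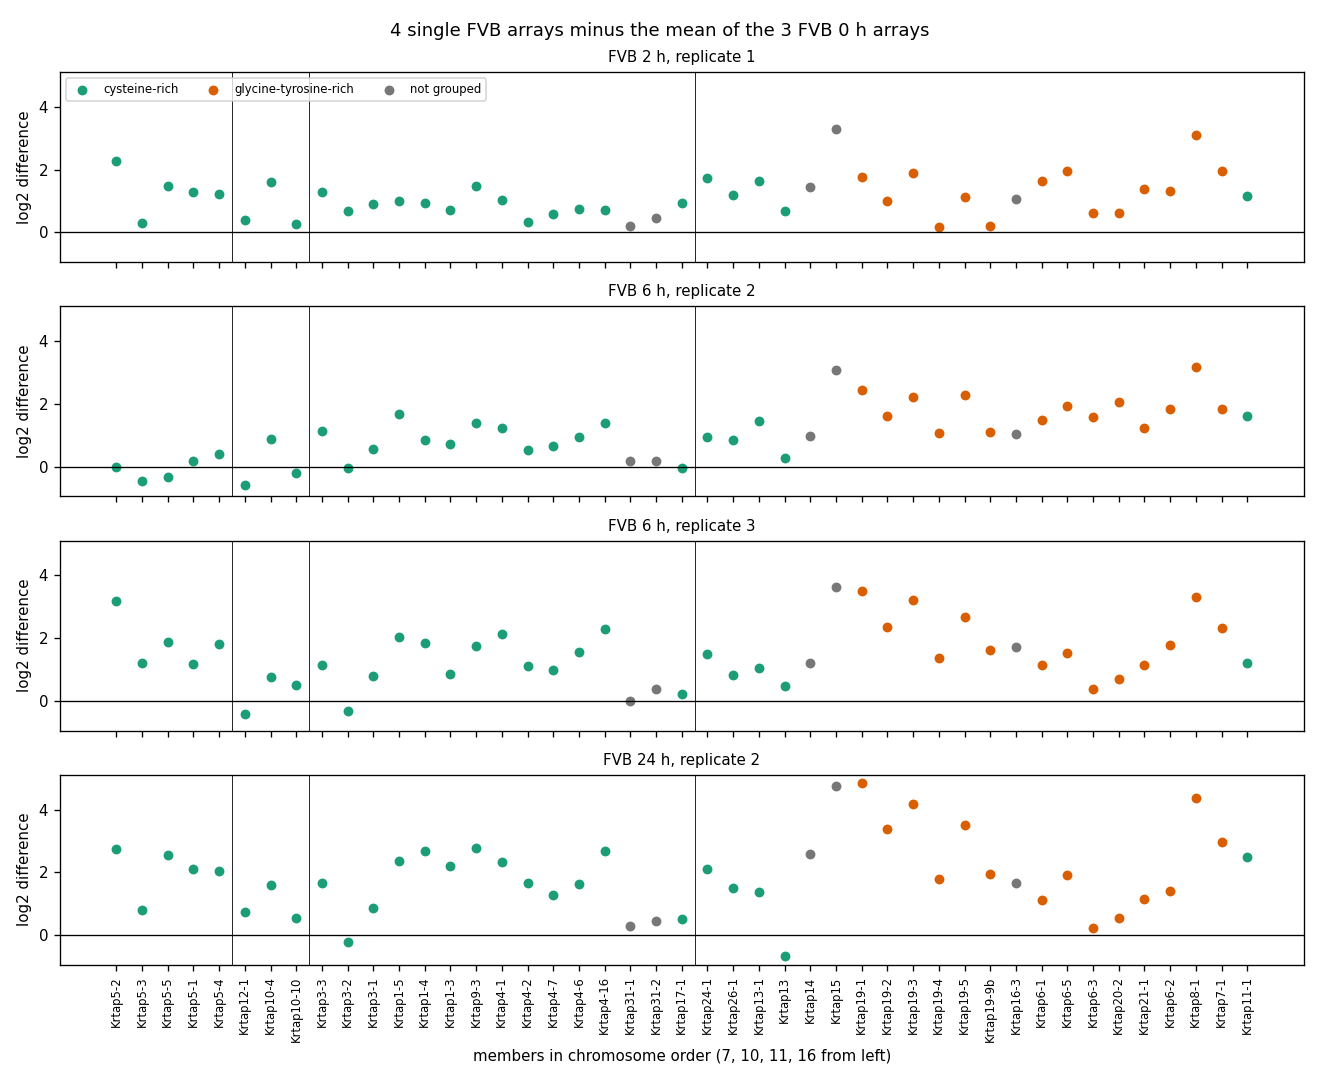
Difference of each member, in chromosome order, between 1 FVB array and the mean of the 3 FVB arrays of 0 h, on the log2 scale, for replicate 1 of 2 h, replicates 2 and 3 of 6 h and replicate 2 of 24 h. Colours give the composition group; in the lowest panel Krtap19-1, Krtap15 and Krtap8-1 lie above 4 and Krtap3-2 and Krtap13 lie below 0.

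Other hair genes changed with the members in FVB at 1008 h. Of the 12 hair shaft keratins measured, 10 rose, led by Krt33a (7.37 ± 1.23), Krt86 (6.33 ± 1.02) and Krt31 (5.79 ± 0.95), the filament partners of the Krtap matrix. The other 2 were lower without being called, Krt36 at -1.03 ± 0.57 (adjusted p = 0.231) and Krt84 at -0.73 ± 0.85. The median of the 12 was 3.76. All 8 inner root sheath genes rose, with a median of 6.59, among them Krt27 (7.66 ± 1.12), Krt71 (7.35 ± 1.07) and trichohyalin, Tchh (6.81 ± 0.98). Of 7 other hair shaft genes 6 rose, including Prr9 (6.20 ± 0.91), the peptidylarginine deiminase Padi3 (5.20 ± 0.71) and the hair desmoglein Dsg4 (4.91 ± 0.73). Of 9 regulators of the hair matrix, 5 rose and 1 fell. Hoxc13, a homeobox factor needed for hair shaft genes, rose by 2.19 ± 0.32, Dlx3 by 1.66 ± 0.27, and Gata3, an inner root sheath factor, fell (-1.23 ± 0.39). Lef1 was not called, at -0.74 ± 0.47. These lists were drawn up with earlier results of these data known.

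Fewer markers of other cells changed. Of 8 melanocyte genes 3 rose, Tyr by 1.33 ± 0.31, Tyrp1 by 1.19 ± 0.37 and Pmel by 1.02 ± 0.31. Of 8 hair follicle stem cell genes 1 rose and 3 fell, namely Fgf18 (-3.09 ± 0.36), Krt15 (-2.27 ± 0.43) and Cd34 (-1.36 ± 0.46). Of 6 interfollicular epidermis genes Krt14 rose (1.57 ± 0.44), none of 5 fibroblast genes changed, and of 4 leukocyte genes Cd3e fell (-1.97 ± 0.40). Liver transcripts had a median of 5.55 in replicate 1 of the FVB 0 h skin, against 8.49 and 8.88 in replicates 2 and 3. Leaving out those 2 arrays left a single 0 h array, taken to vary like the other groups, and 42 members were called at 1008 h in that fit. The part of any of these markers in the members' change was not tested.

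In SPR skin most members were higher at 24, 48 and 1008 h, but none was called. At 48 h the member median was 8.12 and 7.76 in the 2 arrays and at 1008 h it was 7.42 and 7.56, against 4.71 and 4.69 at 0 h. The median change was 2.88 at 48 h and 2.71 at 1008 h, and 35 and 36 members had an unadjusted limma p under 0.05. The share of all genes at an unadjusted p under 0.05 is not given, here or in the other comparisons. The rule called 0.207% of all genes at 48 h and 0% at 1008 h, so few genes of any kind passed it at these 2 times. With SPR fitted alone, 2 members were called at 48 h and 4 at 1008 h. Both arrays lay above both 0 h arrays in 41 members at each of these times, where 20.5% and 19.4% of all genes did. The F test over all SPR times passed in 25 members, against 35.3% of all genes, and in 3 members with SPR fitted alone. At 24 h the arrays were apart, with medians of 8.12 in replicate 1 (batch 2) and 5.46 in replicate 2 (batch 3), a median change of 1.78, 17 members at an unadjusted p under 0.05 and 0.26% of all genes called. Both 24 h arrays lay above both 0 h arrays in 34 members, as in 20.9% of genes.

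Krtap20-2, a glycine-tyrosine-rich gene, came nearest to a call in SPR at 48 h. Its values were 10.31 and 10.83 at 48 h, against 5.53 and 5.29 at 0 h, a difference of 5.16 ± 1.24 (adjusted p = 0.0556). At 1008 h its 2 arrays were far apart, at 6.64 and 10.11. Krtap7-1 had 10.79 and 10.71 at 48 h, against 4.61 and 5.08 at 0 h, a difference of 5.91 ± 1.54 (adjusted p = 0.0863). At 1008 h it had 10.59 and 10.36, a difference of 5.80 ± 1.57 with an adjusted p of 0.887. Krtap8-1 had 10.70 and 10.45 at 48 h and 10.40 and 10.23 at 1008 h, against 4.78 and 5.05 at 0 h. For both genes, all 4 arrays of 48 and 1008 h lay more than 5 log2 units above the higher 0 h array. The inner root sheath genes moved alike, with medians of 10.06 and 9.08 at 48 h, against 5.29 and 4.82 at 0 h, and 2 of 8 called higher.

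At the earlier SPR times no member was called, and 1 array of 12 h stood apart. The median change was 0.12 at 4 h and 0.55 at 12 h, where 5.27% and 18.4% of all genes were called, with 0 and 1 members at an unadjusted p under 0.05. At 12 h the members' medians were 5.98 in replicate 1 and 4.61 in replicate 2. In these arrays 29 and 0 members lay at least 1 log2 unit above the 0 h mean. The share of all genes that far above is not given here. Replicate 1 is an array of narrow range, with an interquartile range of 1.63 over all probe sets where most arrays had 3.32 to 3.72, and its interfollicular epidermis median was 7.73, against 12.23 and 12.19 in the 0 h arrays. Leaving out replicate 2 leaves that array alone at 12 h, so no count of calls is given for that fit. The single arrays of 2 h and 6 h had member medians of 4.84 and 4.35.

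In F1 skin the time order was broken by single arrays. The member median at 0 h was 8.94 in replicate 1, against 3.91, 4.64 and 4.11 in the other 3. The 1 array of 2 h had 8.91, and at 24 h replicate 1 had 8.97 and replicate 2 had 4.88. At 1008 h the 6 arrays had 6.18, 8.01, 7.06, 4.93, 4.68 and 4.60. All other F1 arrays lay between 3.78 and 5.45. At 0 h, batch 2 held replicates 1 and 3 and batch 3 held replicates 2 and 4, so the high array shared its batch with a low one. Among the low arrays, replicates 2 and 4 had lower medians (3.91 and 4.11) than replicate 3 (4.64).

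Krtap8-1 had 8.59, 10.27, 10.30, 5.86, 5.28 and 4.81 in F1 at 1008 h, against 11.45, 4.07, 5.39 and 4.11 at 0 h. The groups overlapped, and the difference was 1.20 ± 1.07. No member was called in F1 at 1008 h, at an unadjusted p under 0.05 or after adjustment, where 0.802% of all genes were called, and the median change was 0.38. Without replicate 1 of 0 h, 3 members were called there. Within batch 3 alone, where replicates 1 and 2 of 1008 h stand against replicates 2 and 4 of 0 h, 31 members were called. The shares of all genes called in these smaller fits are not given here, so the counts cannot be set against them. In batch 2, replicates 3, 4, 5 and 6 of 1008 h had member medians of 7.06, 4.93, 4.68 and 4.60. Replicates 1 and 3 of 0 h, in the same batch, had 8.945 and 4.64. At 24 h the median change was 1.31 with no member called (1.89% of genes called) and 9 at an unadjusted p under 0.05. Without replicate 1 of 0 h 18 were called at 24 h. Without replicate 2 of 24 h, or within batch 3 alone, 24 h is replicate 1 only, so no count is given. At 4, 48 and 72 h no member was called (10.5%, 1.39% and 1.99% of genes called), and 1, 1 and 0 had an unadjusted p under 0.05. Without replicate 1 of 72 h, which leaves an array of narrow range (interquartile range 2.47), 1 member was called there. At 6 and 12 h Krtap3-2 alone was called, lower, as were 4.98% and 2.47% of genes, with 10.4% and 4.94% called either way. The F test over F1 times passed in 4 members (1 with F1 fitted alone), Krtap3-2, Krtap9-3, Krtap10-10 and Krtap16-3, against 26.7% of genes.

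Hair genes outside the Krtap group were high in the same F1 arrays. The inner root sheath median was 9.85 in replicate 1 of 0 h, against 4.07, 4.68 and 4.87 in the other 3. It was 10.36 in the array of 2 h and 9.99 in replicate 1 of 24 h, against 5.95 in replicate 2. In the 6 arrays of 1008 h it was 7.69, 9.26, 8.65, 6.52, 5.01 and 4.65. The hair shaft keratin median was 7.93 in replicate 1 of 0 h, against 4.05, 4.70 and 4.27 in the others. Liver transcripts did not set these arrays apart alike, with medians of 5.74 in replicate 1 of 0 h and 9.65 in replicate 1 of 24 h. The part of these markers in the members' values was not tested.

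The change at 1008 h was compared between strains as a difference of changes, since levels of FVB arrays lie in a batch of their own. The F1 change minus the FVB change was called in 35 of 45 members, against 1.41% of all genes. It was negative in 34 of them and positive in Krtap13, where 0.887% and 0.526% of all genes were called that way. The median over members was -4.40, from -6.29 ± 1.23 for Krtap6-3 to 2.03 ± 0.36 for Krtap13. In Krtap4-1 it was -5.64 ± 1.25 and in Krtap4-16 -5.63 ± 1.29. The most variable members missed the call, among them Krtap8-1 at -6.08 ± 1.71 (adjusted p = 0.0558) and Krtap15 at -5.16 ± 1.82 (adjusted p = 0.160). Without replicate 1 of F1 at 0 h 20 members were called, all of them among the 35, and without replicates 2 and 3 of FVB at 0 h, which leaves 1 array there, none was. Of the 35, 31 were called with trend and robust settings. Strain and batch cannot be told apart in either comparison with FVB.

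The SPR change minus the FVB change was called in 3 members, against 1.40% of all genes, 2 of them lower (0.739% of genes) and 1 higher (0.664%), and had an unadjusted p under 0.05 in 17. Krtap31-2 had 4.18 and 3.90 in SPR at 1008 h, against 4.43 and 4.54 at 0 h, both arrays lying below both 0 h arrays. In FVB it had 8.01, 8.79 and 7.31 at 1008 h, against 3.55, 3.80 and 3.65 at 0 h. The difference of changes was -4.86 ± 0.93 (adjusted p = 0.00300). Krtap31-1, its neighbour, had 4.65 and 4.07 in SPR at 1008 h, against 4.28 and 4.34 at 0 h, and 7.79, 7.83 and 7.74 in FVB at 1008 h, against 3.72, 3.54 and 3.88 at 0 h. The difference was -3.92 ± 0.97 (adjusted p = 0.0230). Krtap13 differed by 1.93 ± 0.45 (adjusted p = 0.0153). How well the probe sets match Spret/Ei transcripts was not tested, so a low SPR value may not mean low expression. Only Krtap31-2 kept the call without replicate 1 or 2 of SPR at 0 h, without replicate 2 of SPR at 1008 h, and without replicates 2 and 3 of FVB at 0 h. SPR minus F1 was called in no member and in 0% of all genes, with 17 members at an unadjusted p under 0.05.

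Both family 31 members were measured high in some F1 arrays. Krtap31-1 had 6.94 in replicate 1 of 0 h, 7.53 in the array of 2 h and 5.99 in replicate 1 of 24 h. Krtap31-2 had 4.74, 6.32 and 7.99 in those 3 arrays. The order of the arrays therefore differed between these neighbours, whereas Krtap8-1 had 11.45, 11.34 and 10.91 in the same arrays. In SPR at 48 h Krtap31-1 had 5.02 and 4.16 and at 1008 h 4.65 and 4.07, against 4.28 and 4.34 at 0 h, while Krtap17-1, also on chromosome 11, had 9.89 and 9.60 at 48 h, against 7.75 and 7.47 at 0 h. Krtap5-3 was near its untreated values in SPR as well, with 7.59 and 7.43 at 1008 h, against 7.80 and 7.30 at 0 h. Its SPR change was 0.04 ± 0.59 and its FVB change 1.86 ± 0.47, and the difference between strains was not called.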

How the data were processed

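The deposited values are log2 expression values of 35556 probe sets on 69 Affymetrix arrays, between 0.206 and 14.839. The submitters' processing notes name RMA, a method that subtracts background, gives all arrays the same distribution and combines the probes of a set. The interquartile ranges of the arrays run from 1.63 to 3.72, so the deposited values do not share 1 distribution. Any treatment of batches by the authors is not stated in the sources at hand. Strain and time came from the labels. The labels leave 3 arrays without a group, and these entered no comparison. The protocol names sampling to 1 week, whereas the labels also give 12 h and 1008 h.

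Probe sets were named from the platform annotation, and 18820 genes were each represented by their single-symbol probe set with the highest mean. A limma model (version 3.58.1, R 4.3.3; lmFit, eBayes) held 27 group means and the contrast of batch 3 with batch 2, on 66 arrays, with 38 residual degrees of freedom and no filter on low values. Tests were two-sided and p-values were adjusted over all genes of a contrast by Benjamini-Hochberg. Calls needed an adjusted p under 0.05 and an absolute log2 change of at least 1, and the F tests over times needed the adjusted p alone. Values after ± are standard errors of the fit. Up to 5 members with the largest changes, the extremes of each family, members near the call and members decided by 1 array were named, with up to 4 genes of each marker list. Some named examples were chosen after their values were seen, and composition groups follow family membership because no protein sequences were used here. Members, lists and tests were chosen with earlier results of these data known. Alternatives were other eBayes settings, 2 other scalings, the probe set of a gene, the fold threshold, dim probe sets, single strains or batches, no batch term, a replicate block, and arrays left out. On simulated data for FVB at 1008 h minus 0 h over 18820 genes, 91% of 100 genes changed by 1.5 log2 units and 99% of 100 changed by 3 were recovered, with 6 false calls. The changed genes were drawn from all genes with independent noise, so these rates do not give the recovery among the members. Precision is limited by how many arrays a group holds.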

Additional observations from a re-analysis of the deposited data

Results flagged for a closer look

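In F1 at 0 h, replicate 1 stood apart from the other 3 arrays. The gap between it and the next array, as a share of the whole range of the group (Dixon's ratio), was 0.855 for the median over members. The ratio was 0.973 for Krtap4-16 (8.85, against 3.20, 3.13 and 3.28), 0.895 for Krtap19-1 and 0.915 for Krtap6-3. For Krtap13 it was 0.847, where replicate 4 was the one apart, at 3.75 against 3.53, 3.54 and 3.56. The critical value for 4 arrays is 0.829, which chance passes in about 1 of 20 groups. The ratio passed it in 27 members, Krtap13 among them, so not all of these set replicate 1 apart. The share of all genes that passed it is not given here.

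The change at 1008 h differed between F1 and FVB in 35 members and between SPR and FVB in 3, by the test of the difference itself.

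The 13 probe sets that name a Krtap gene together with other genes entered no comparison. All 13 had every FVB array of 1008 h above every array of 0 h, and their median log2 difference was 5.671, from 4.061 to 6.033.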

How the results depend on the processing

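In FVB at 1008 h, between 43 and 45 members were called with any 1 array left out, 44 (of 44 measured above the limit) with dim probe sets left out, 42 without replicates 2 and 3 of 0 h (1 array left there), and 45 under the other alternatives run. No called change in these results turned direction under the alternatives run. Centring arrays on their medians shifted the median of all genes in that comparison to 0.10. Under other settings the number of members called was as follows, without the share of all genes called. With trend and robust settings it was 1 for the F1 F test. Median centring gave 1 for FVB at 48 h. Cyclic loess gave 0 for F1 at 6 h, 1 for F1 at 24 h and SPR at 48 h, and 7 for SPR minus FVB. Leaving out dim probe sets, which removes Krtap13, gave 1 for FVB at 12 h, 0 at 72 and 168 h, 1 for SPR at 48 h and 10 for the F1 F test. Each strain fitted alone gave 2, 5, 4 and 2 for FVB at 6, 48, 72 and 168 h, 1 for the F1 F test, 2 and 4 for SPR at 48 and 1008 h, and 3 for the SPR F test. Without a batch term SPR at 48 h had 1. Batch 3 alone gave 31 for F1 at 1008 h. Without the 2 arrays of narrow range it was 4 for FVB at 48 h, 1 for F1 at 24 h and SPR at 48 h, and 6 for SPR minus FVB. Without replicates 2 and 3 of FVB at 0 h it was 1 for FVB at 12 and 48 h, 0 for F1 minus FVB and 1 for SPR minus FVB. The cause of these differences was not tested.

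With 1 array left out at a time, the count ranged from 1 to 2 for FVB at 12 h, was 1 for FVB at 48 h, and ranged from 0 to 2, 0 to 1, 0 to 18, 0 to 1 and 0 to 3 for F1 at 6, 12, 24, 72 and 1008 h. The count ranged from 20 to 40 for F1 minus FVB. For SPR at 12 h and for SPR minus FVB, leaving out an SPR array left 1 array in a group. No range is given for these.

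With the replicate number as a block, 4 members were called for FVB at 48 h, 2 and 3 for F1 at 4 and 6 h, 8 for SPR at 48 h and 36 in the F1 F test, and 27 of the 35 for F1 minus FVB were kept. Deviations from group means of same-numbered arrays at different times had a median r of -0.009 in FVB (22 of 108 pairs over 0.1), 0.064 in F1 (20 of 60) and 0 in SPR (8 of 30), so the numbers were not taken to pair the arrays in any strain.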

Other observations

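The 3 arrays that the labels leave without a group had medians over the 45 members of 4.72, 3.97 and 4.63, and inner root sheath medians of 6.98, 4.00 and 4.72.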
